A study of Mus musculus with 2 samples.

Results

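Peaks of the histone mark H3K4me3 that lie deep inside protein-coding genes were described in mouse prospermatogonia, the germ cells of the fetal testis that later give rise to spermatogonia. A peak was taken where its summit, the base of highest signal, lay on chromosomes 1 to 19, inside a protein-coding gene and more than 5 kb from an end of any annotated gene. These interior peaks numbered 18392 of 135064 in all, and they were 15% of the 122479 autosomal peaks (Wilson interval 14.8 to 15.2). They were set beside 56023 distal peaks, which were as far from every gene end but outside protein-coding genes, and beside 19056 gene-end peaks, with a summit within 1 kb of a protein-coding gene end. The labels give 1 H3K4me3 library and 1 IgG control library, each made by CUT&RUN from 130000 Oct-GFP+ cells isolated by sorting at E17.5. The deposited list describes the H3K4me3 library, and the IgG library is not analysed here. How many embryos gave the cells is not stated in the labels. No mutant, treated or other stage entered, and with 1 library there is no replicate and no test. All intervals are 95% intervals that cover counting error only. The reporter marks germ cells, and 8 of 8 germ cell marker genes carried a peak within 1 kb of an end, as did 5 of 6 Sertoli markers (all but Gata4), 2 of 6 Leydig and interstitial markers and 2 of 6 endothelial and blood markers. Most genes carry such a peak: of 12884 autosomal protein-coding genes with sequence over 5 kb from every gene end, 2272 had none within 1 kb of either end. The marker counts therefore say little about cell identity. Counts of marked ends do not measure how many other cells were present.

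H3K4me3 is laid down by SET1 and MLL complexes, mostly at promoters, where it borders the nucleosome-free start of transcription. Promoters rich in CG dinucleotides attract these complexes through CXXC-domain proteins, which bind unmethylated CG, and methylated DNA tends to lack the mark. Many genes also use internal promoters, which begin a shorter transcript within the gene. In CUT&RUN an antibody tethers a nuclease to the chromatin that carries the mark, and the small fragments it cuts loose are sequenced.

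The stretches of sequence printed here show what such an internal start looks like with and without a peak, and were chosen because CG content differed between marked and unmarked internal starts. Each is a 300-base RefSeq window on GRCm38.p6 (mm10) that runs from 250 bases before an annotated start to 50 bases after it, 5′ to 3′, with every CG in capitals. Dnmt1 encodes the maintenance DNA methyltransferase and is known to use different first exons in oocytes and somatic cells, and Dnmt3l encodes the germ-line cofactor of de novo methylation and has several known promoters. Nrxn3 encodes a presynaptic adhesion protein with alternative promoters, and Sox6 a transcription factor of neural and cartilage development.
Dnmt1 internal start with a peak, chr9:20952574-20952873, minus strand: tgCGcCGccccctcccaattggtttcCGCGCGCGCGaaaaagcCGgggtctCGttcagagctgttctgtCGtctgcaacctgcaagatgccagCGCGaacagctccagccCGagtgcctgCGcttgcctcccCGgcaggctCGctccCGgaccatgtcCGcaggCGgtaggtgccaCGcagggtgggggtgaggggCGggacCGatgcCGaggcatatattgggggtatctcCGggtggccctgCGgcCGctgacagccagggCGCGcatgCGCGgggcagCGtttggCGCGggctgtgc
Dnmt3l internal start with a peak, chr10:78049592-78049891, plus strand: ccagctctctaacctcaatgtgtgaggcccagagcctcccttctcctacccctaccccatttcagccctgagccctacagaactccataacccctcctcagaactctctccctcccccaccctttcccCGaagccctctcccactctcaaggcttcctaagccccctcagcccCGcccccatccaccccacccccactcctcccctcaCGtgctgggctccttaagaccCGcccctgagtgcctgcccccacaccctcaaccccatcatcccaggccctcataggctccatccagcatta
Dnmt3l internal start without a peak, chr10:78055085-78055384, plus strand: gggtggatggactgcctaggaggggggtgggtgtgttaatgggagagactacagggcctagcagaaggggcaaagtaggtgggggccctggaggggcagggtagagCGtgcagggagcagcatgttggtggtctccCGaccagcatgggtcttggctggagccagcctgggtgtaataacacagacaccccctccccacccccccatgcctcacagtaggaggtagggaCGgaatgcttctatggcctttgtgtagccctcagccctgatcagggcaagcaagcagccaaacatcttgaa
Nrxn3 internal start with a peak, chr12:89812233-89812532, plus strand: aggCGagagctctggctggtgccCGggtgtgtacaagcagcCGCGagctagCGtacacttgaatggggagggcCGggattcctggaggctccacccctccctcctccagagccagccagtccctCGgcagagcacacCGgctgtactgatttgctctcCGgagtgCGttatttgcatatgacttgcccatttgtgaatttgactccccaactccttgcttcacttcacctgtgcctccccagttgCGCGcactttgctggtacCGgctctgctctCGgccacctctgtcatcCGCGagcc
Nrxn3 internal start without a peak, chr12:88953140-88953439, plus strand: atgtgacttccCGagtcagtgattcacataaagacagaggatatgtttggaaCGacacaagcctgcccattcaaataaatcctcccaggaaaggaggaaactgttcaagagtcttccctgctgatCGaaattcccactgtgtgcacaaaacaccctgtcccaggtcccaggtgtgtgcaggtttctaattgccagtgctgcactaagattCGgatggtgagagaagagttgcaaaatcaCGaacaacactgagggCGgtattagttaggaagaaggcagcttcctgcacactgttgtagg
Sox6 internal start without a peak, chr7:115801560-115801859, minus strand: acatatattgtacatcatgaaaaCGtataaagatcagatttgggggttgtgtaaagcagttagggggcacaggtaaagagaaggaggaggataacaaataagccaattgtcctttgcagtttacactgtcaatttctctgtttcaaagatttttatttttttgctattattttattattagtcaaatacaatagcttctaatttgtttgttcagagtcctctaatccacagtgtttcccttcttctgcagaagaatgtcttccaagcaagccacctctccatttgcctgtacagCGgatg

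The Dnmt1 window held 33 CG and lay 7265 bp from the start of the gene, under a peak of 1208 bp with 36 fragments at its summit and a fold enrichment of 6.29. The outer start of Dnmt1 had no peak within 1 kb. The first Dnmt3l window held 4 CG and lay under a peak of 1348 bp with 35 fragments and a fold of 7.20. The other Dnmt3l window, with 3 CG, met no peak. In Nrxn3 the window with 16 CG lay 1089782 bp inside the gene under a peak of 1606 bp with 45 fragments, whereas the window with 6 CG, 230689 bp inside, met none. The Sox6 window held 2 CG and met none, and 3 further annotated internal starts of Sox6 met none either. A further Nrxn3 window with only 2 CG met a peak of 1596 bp, so Nrxn3 and Dnmt3l each had a mark at a start with few CG.

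The RefSeq start windows held 1708 annotated starts of this internal kind in 1301 genes, with chromosome 18 not covered. An interior peak overlapped 723 of them (42.3%, interval 40.0 to 44.7), against 63.2% of the 12153 windows at the start of a gene, where any autosomal peak counted. When peaks with only 1 bp in the interior also counted, the share of internal starts was 43.3%. Interior peaks covered 1.596% of interior sequence, which is a share of bases and not of windows touched. The share of internal starts with a peak was 3.80% (1.75 to 8.04) with 0 or 1 CG in the window, 14% with 2 to 4, 32.5% with 5 to 9, 82.6% with 10 to 19 and 85.1% (80.6 to 88.7) with 20 or more. At gene starts the same classes gave 3.60%, 15.1%, 59.1%, 96.5% and 94.3%. The intervals of both kinds of start overlapped up to 4 CG. From 5 CG on the internal starts were marked less often, by interior peaks alone, with intervals that did not overlap. The CG classes of internal starts were not recounted with all peaks.

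**Figure D1:**
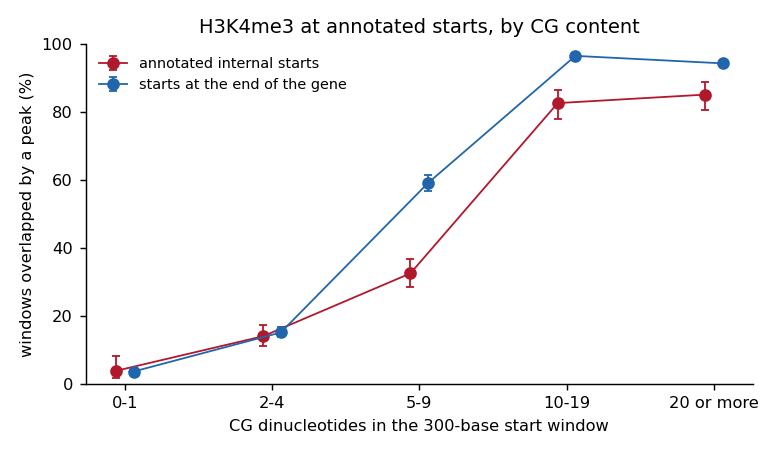
Share of 300-base start windows overlapped by an H3K4me3 peak (y axis, percent) by the number of CG dinucleotides in the window (x axis). Annotated internal starts (red) count interior peaks only, and starts at the end of the gene (blue) count any autosomal peak. Bars are 95% Wilson intervals. Internal starts reach 32.5% with 5 to 9 CG, where gene starts reach 59.1%, and both exceed 80% from 10 CG on.

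Internal starts with a peak held a median of 15 CG, against 4 in those without, and their GC content had a median of 59.0% against 49.0%. The motif GGGCGG, known as a binding sequence of SP1, was found on either strand in 55.3% of marked windows and 14.4% of unmarked ones, beside 47.0% of all 20084 promoter windows of that length. TATAAA, the core of a TATA box, was in 6.22% of marked and 16.6% of unmarked windows, beside 12.7% of all. CCAAT was in 35.7% and 35.2%, beside 38.1% of all. GGGCGG itself contains CG, so its share is tied to CG content. No window without a match can be read as unbound.

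Unmarked internal starts with the most CG mostly had a peak beside them. Of the 45 unmarked windows with 20 or more CG, 39 (86.7%, interval 73.8 to 93.7) had an interior peak less than 1000 bp away, against 12 of 50 (24%, 14.3 to 37.4) with 10 to 19 CG and 8.55% of the 152 with 0 or 1 CG. Dnmt3a, the de novo DNA methyltransferase gene, held 2 such windows with 46 and 47 CG, and their nearest interior peak began 862 and 682 bp away. These 2 windows overlap each other, so windows are not independent and their intervals can be too narrow. A window of Runx1 with 35 CG, inside a gene for a blood transcription factor, lay 156 bp from the nearest peak. A window of Zfp217, a zinc finger gene, held 49 CG and lay 13 bp from one. Runx1, Zfp217 and both Dnmt3a windows were chosen after their values were seen. Peaks with a summit within 5 kb of a gene end were not counted here, and the Dnmt3a windows lay 5421 and 5601 bp from the gene start.

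Peaks at internal starts were wide. The 660 interior peaks that overlapped an internal start had a median width of 1099 bp (1050 to 1148) and a median of 40 fragments at the summit, against 573 bp (563 to 580) and 25 fragments in the 17165 that did not, chromosome 18 left out. The medians of fold enrichment were 6.68 and 6.46, beside a local background of 5.28 and 2.54 fragments. The share of interior peaks at an internal start was 0.671% for widths of 158 to 299 bp, 1.89% for 300 to 599, 3.04% for 600 to 999, 8.04% for 1000 to 1499, 28.4% for 1500 to 1999 and 41.3% (19 of 46) for 2000 bp or more. Thus most interior peaks, also among the widest, met no annotated internal start of this table, which is not complete.

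Across all interior peaks the width had a median of 586 bp (578 to 596), with quartiles of 306 and 914 bp and extremes of 158 and 2625 bp. Distal peaks outside protein-coding genes had a median of 527 bp (521 to 532) and gene-end peaks one of 878 bp (867 to 890). Widths of at least 1500 bp were found in 2.70% of interior, 1.42% of distal and 16.2% of gene-end peaks. The summit pileup, the number of fragments over the summit, had a median of 26 in interior peaks, 23 in distal and 39 in gene-end peaks. Interior peaks thus stood between the other classes in width and pileup, and much nearer to the distal ones.

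**Figure D2:**
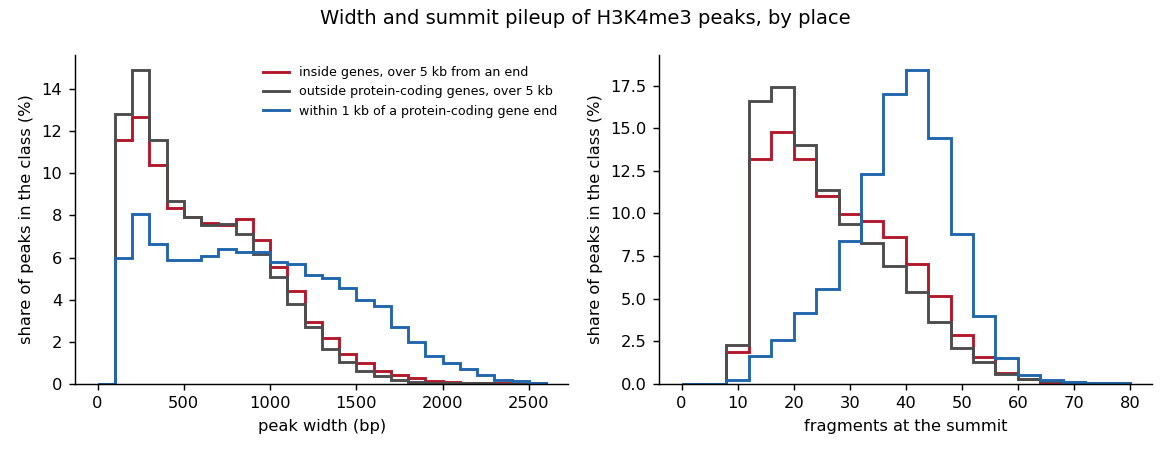
Distribution of peak width (left, bp) and of fragments at the summit (right) for interior peaks (red), distal peaks outside protein-coding genes (grey) and gene-end peaks (blue), as the percent of each class per bin. The medians are 586, 527 and 878 bp, and 26, 23 and 39 fragments.

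The fold enrichment is the authors' value, the summit pileup over the local background of the peak caller with 1 added to each, and it ran in another order. Its median was 6.47 in interior peaks, 6.42 in distal peaks and 5.43 in gene-end peaks. The median background beside them was 2.62, 2.45 and 6.26 fragments, and it stood at its lowest value, 2.11, in 36.9% of interior, 39.4% of distal and 3.81% of gene-end peaks. The name of each deposited peak holds "IgG", and whether that background comes from the IgG library or from the surroundings of a peak in the H3K4me3 library is not stated in the labels. Folds and backgrounds are therefore given as the list has them.

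More than 5 kb from every gene end, the mark was sparser inside protein-coding genes than outside them. How far the sequence lies from gene ends beyond that limit was not matched between both. Interior sequence, 745.6 Mb, held 24.67 peaks per Mb (exact Poisson interval 24.31 to 25.03), distal sequence outside protein-coding genes held 50.01 (49.60 to 50.43) over 1120 Mb, and sequence within 5 kb of a gene end held 83.42. Interior peaks were 24.7% of all distal peaks (24.4 to 25), whereas 40% of the distal sequence lay inside protein-coding genes. The ratio of interior to distal density, 0.493, stayed between 0.467 and 0.543 under the alternatives tried. The density ran between 19.2 peaks per Mb on chromosome 9 and 30.9 on chromosome 10. Whether sequence that cannot be mapped differs between the classes was not tested.

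Inside genes the density fell steeply near the ends and then changed little. It was 232 peaks per Mb within 1 kb of an end, 45.8 between 2 and 3 kb, 31.8 between 4 and 5 kb, 28.9 between 5 and 6 kb and 22.5 between 20 and 50 kb. Beyond 100 kb it was 27.1 (26.1 to 28.2), above the 22.5 (21.8 to 23.1) of the 20 to 50 kb class. The 513 peaks just inside the limit, up to 5.5 kb from an end, had medians of 596 bp, a fold of 5.72 and 32 fragments. The 527 just outside it, from 4.5 kb on, had 610 bp, 5.42 and 33 fragments. The limit thus divides a continuous range. The median pileup was 31 fragments at 5 to 6 kb and 23 beyond 100 kb, while the median fold was 5.83 and 6.74.

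**Figure D3:**
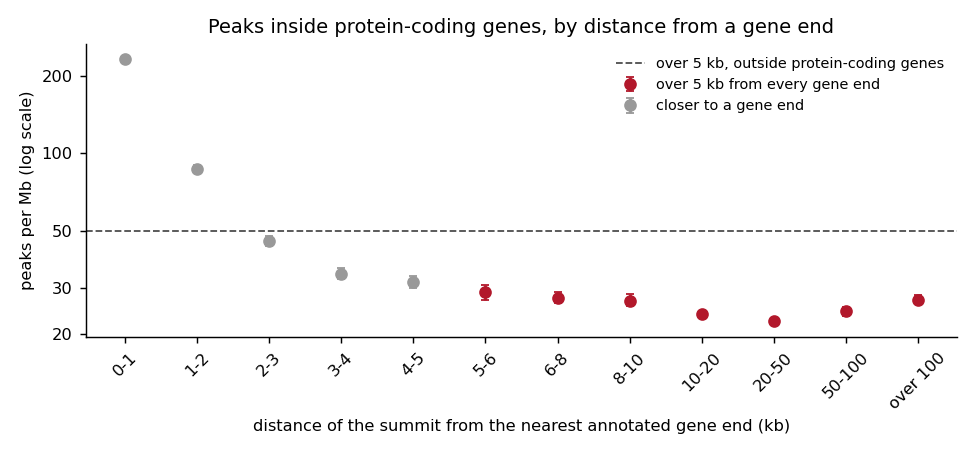
H3K4me3 peaks per Mb (y axis, log scale) inside protein-coding genes by distance of the summit from the nearest annotated gene end (x axis, kb), red where over 5 kb and grey where closer. Bars are 95% Poisson intervals, and the dashed line is the density over 5 kb from an end outside protein-coding genes. Every class beyond 5 kb lies between 22.5 and 28.9 peaks per Mb, under the dashed line at 50.01.

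Interior peaks often came close together. Another interior peak lay within 1000 bp of 30.9% of them and within 5000 bp of 43.4%, so neighbouring peaks in 1 gene can belong to 1 marked stretch. Along 1361 genes of known strand with at least 100 kb of interior, the density was 25.9 peaks per Mb (25 to 26.8) in the part nearest the start, 22.8 (21.9 to 23.6) in the middle part and 24.3 (23.5 to 25.3) in the last part.

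Of 12884 autosomal protein-coding genes with any interior sequence, 5019 (39.0%) held an interior peak, and 108 peaks counted for more than 1 gene. Among the 6673 with at least 20 kb of interior, 56.7% held a peak. The share was 8.41% of genes with under 5 kb of interior, 41.0% with 20 to 50 kb and 97.8% with 300 kb or more. Peaks per Mb did not follow that order. They were 42.8 (37.4 to 48.8) under 5 kb, 20.8 (20.0 to 21.6) at 50 to 100 kb and 27.8 (27.2 to 28.5) at 300 kb or more.

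Genes with a peak at their start held fewer interior peaks per Mb than genes without one. Strand was known for 10213 of these genes, and 79.3% of them had a peak within 1 kb of the start. The marked genes held 22.3 interior peaks per Mb (21.9 to 22.7), and the 2111 unmarked genes held 36.1 (34.9 to 37.4), a ratio of 0.617 (0.593 to 0.641). An interior peak was found in 36.0% of marked and 47.3% of unmarked genes. The direction was the same in each class of interior length, with 29.0 against 48.8 peaks per Mb at 5 to 20 kb, 20.7 against 42.1 at 20 to 50 kb, 19.8 against 27.3 at 100 to 300 kb and 25.9 against 36.2 above that. Where the start peak was at least 1500 bp wide the density was 20.9. Genes with both ends marked held 31.1 per Mb (29.8 to 32.5). This was above the 22.2 (21.8 to 22.6) with 1 end marked and below the 34.8 (33.7 to 36) with none. Against genes with no end marked, only the class of 20 to 50 kb of interior had intervals that did not overlap. There the density was 28.6 (25.1 to 32.5) against 40.6 (37.6 to 43.7). At 5 to 20 kb it was 51.6 (45.3 to 58.4) against 46.7 (42.4 to 51.4), so a change of direction with length is not resolved. The interior peaks of genes with a marked and an unmarked start were alike in size. Their median widths were 584 and 601 bp, folds 6.52 and 6.38 and pileups 26 and 27 fragments.

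Among the 1780 genes with at least 100 kb of interior, 285 held no interior peak. Of those with known strand, 93.7% (89.7 to 96.2) of the genes without a peak had a marked start, against 77.9% (70.0 to 84.1) of the 10% of genes with most peaks per kb and 86.5% of all such genes. The longest interiors without a peak were in Smyd3, a SET-domain methyltransferase gene, with 536 kb, Lpp, of focal adhesions, with 525 kb, Dock1, an activator of Rac, with 463 kb, Gmds, of fucose synthesis, with 434 kb, and Dgki, a diacylglycerol kinase, with 420 kb. A count of 0 allows up to 5.60 peaks per Mb in Smyd3 and up to 7.15 in Dgki, where all genes held 24.7. These genes were picked for a count of 0 in a long interior. Limits below the value of all genes were thus fixed by that choice. Lpp, Dock1, Gmds and Dgki all had a start peak, of 1034, 1877, 2015 and 1942 bp, and Smyd3, whose strand was not known, had a peak of 1436 bp at 1 end.

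The genes with most interior peaks were very long, and several of them act in neuronal adhesion. Lrp1b, a giant lipoprotein-receptor-like gene, held 130 peaks in 1994 kb, or 0.0652 per kb (0.0545 to 0.0774). Ptprd, a receptor phosphatase of synapses, held 104, Naaladl2 86, Csmd3 78, Ctnna3, an alpha-catenin, 77 and Lrrc4c, a netrin-G ligand, 77. Cadm2 and Cntnap2, both of neuronal cell adhesion, held 75 each, the glypican Gpc5 69 and the cadherin Cdh18 68. Per kb these 10 genes lay between 0.0356 in Cntnap2 and 0.0801 in Cadm2. All genes held 24.7 per Mb, and genes with 300 kb or more of interior 27.8. The 10 were picked for their counts, so values above these means follow in part from that choice. The 130 peaks of Lrp1b had a median of 514 bp and 23 fragments, and 36.2% of them had fewer than 20 fragments, beside 29.8% of all interior peaks. In Cdh18 the median was 662 bp and 27 fragments, and its widest peak had 1809 bp. With peaks of at least 20 fragments only, Lrp1b held 0.0416 per kb and Ptprd 0.0293, beside 17.3 per Mb over all interior sequence.

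Per kb, shorter genes came first, among genes with at least 20 kb of interior. Shorter interiors can hold higher values from few peaks, such as 0.873 per kb from 3 peaks in Nr2f2 and 0.589 from 10 in Pax6, and with a minimum of 10 kb 1 of the leading 15 stayed. Hif3a, a hypoxia-inducible factor gene, held 7 peaks in 21.4 kb, or 0.327 per kb (0.131 to 0.673), and Chrna9, a nicotinic receptor subunit, 6 in 21.8 kb, or 0.276 (0.101 to 0.600). Sptbn4, a spectrin of axons, held 18 in 81.3 kb (0.221 per kb, 0.131 to 0.350), and Shank1, a postsynaptic scaffold, 9 in 41.1 kb (0.219). The other 11 of the leading 15, Exoc3l2, Zfp217, Tmem14a, Sfi1, Klra17, Adam29, Chrnb3, Gpa33, C130026I21Rik, Sim2 and Castor2, had 0.213 to 0.187 per kb from 4 to 7 peaks each. The intervals of all 15 overlapped one another, so their order is not resolved at these counts.

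The peaks of the densest genes were mostly narrow and of low fold, but mostly not of low pileup. Only Adam29, at 13, and Chrnb3, at 24.5, had a median pileup below the 26 fragments of all interior peaks. The median width was below that of all interior peaks in 13 of the 15 genes, all but Gpa33 and Tmem14a. The median fold was below it in 14, all but Tmem14a at 7.92. The 7 peaks of Hif3a were 166 to 836 bp wide, with 21 to 43 fragments and folds of 2.93 to 4.89. The 6 of Sim2, a developmental transcription factor gene, lay between 94093192 and 94098526 on chromosome 16, had 26 to 47 fragments and folds of 2.39 to 4.47, and sat on backgrounds of 9.18 to 10.3 fragments. The 5 of Adam29, a testis gene of the ADAM family, were 158 to 281 bp wide with 11 to 15 fragments each. Sptbn4 reached further, with a widest peak of 1518 bp and up to 65 fragments. With folds of at least 5 only, 2 of the 15 genes stayed among the leading 15, and Hif3a, Klra17 and Sim2 held no peak. With peaks joined over gaps of up to 1000 bp, 5 of the 15 stayed.

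**Figure D4:**
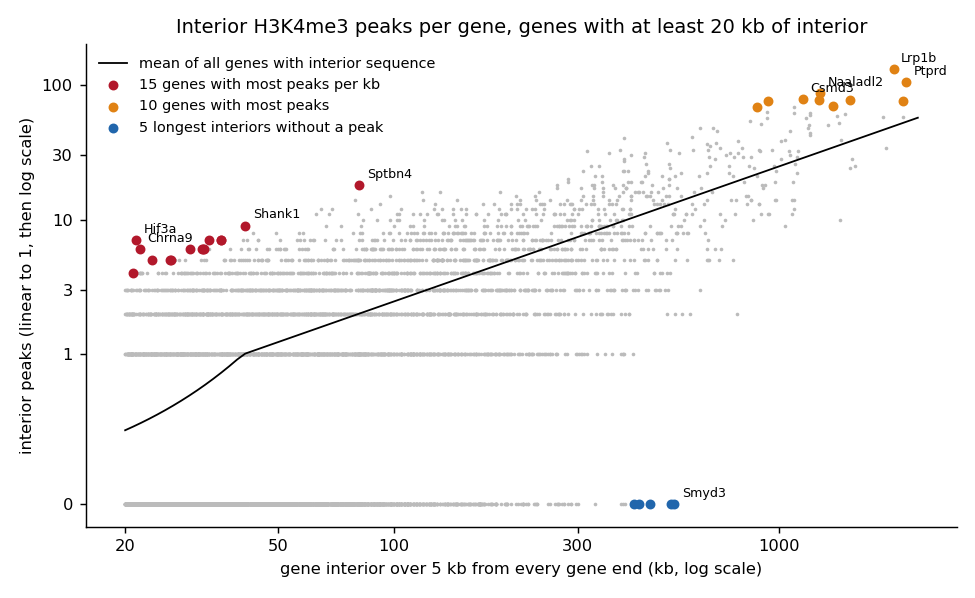
Interior peaks per gene (y axis, linear to 1 and log above) against interior length (x axis, kb, log scale) for genes with at least 20 kb of interior, each a grey point. Colours mark the 15 genes with most peaks per kb (red), the 10 with most peaks (orange) and the 5 longest interiors without a peak (blue), and the line is the mean of 24.7 peaks per Mb, bent where the y axis changes scale. Lrp1b has 130 peaks and Hif3a 7, and Smyd3 has 0 in 536 kb.

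The widest interior peak, 2625 bp with 46 fragments and a fold of 4.65, lay in Lamp5, a lysosomal membrane protein gene of neurons, at chr2:136057417-136060041, and overlapped an annotated internal start with 2 CG. Rai1, the retinoic acid induced gene, followed with 2540 bp, then a peak of 2528 bp shared by Ctnna2 and Lrrtm1, which lies within it. Caln1 had 2502 bp, the nuclear receptor gene Rora 2487, the neurotrophin gene Bdnf 2364, Prr5l and Opcml 2345 each and the postsynaptic scaffold gene Dlg2 2343. The Bdnf peak overlapped 2 annotated internal starts, with 10 and 13 CG, and the Prr5l peak 1 with 11 CG. These 9 had 42 to 62 fragments and folds of 3.87 to 6.66.

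The interior peaks of highest fold were narrow. The first, in Gphn, which encodes the receptor scaffold gephyrin, had a fold of 31.5, 104 fragments (85.0 to 126) and 309 bp. Chl1, a neural adhesion gene, had 28.0 with 241 fragments (212 to 273), the highest interior pileup, over 314 bp, and Kctd16 27.8 with 131 fragments. A peak in the overlapping genes Cmss1 and Filip1l had 23.3, and Camk1d, 2210408I21Rik, Grik4, A830018L16Rik, Zc3h7a and Cntnap5b followed with 22.2 to 18.6. Mdga2 and 1600014C10Rik had 202 and 116 fragments at folds of 13.7 and 4.88. Folds of at least 15 were found in 26 interior peaks (0.141%), 34 distal peaks (0.0607%) and 1 gene-end peak, and those 26 were 225 to 952 bp wide with 46 to 241 fragments. No filter for repeated sequence and no IgG value was used to check them, so the part of multi-copy sequence was not tested.

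The 5 lists of germ-line and chromatin genes and the 10 lists of other genes differed in their counts, beside 39.0% and 24.7 peaks per Mb over all genes. Germ cell identity genes held a peak in 10 of 21 with interior sequence, at 17 peaks per Mb (10.4 to 26.2). Tfap2c, a specifier of germ cells, held 2 peaks of 365 and 489 bp. Lin28a, the RNA-binding regulator of let-7, held 2 of 19 fragments each. Rarg, a retinoic acid receptor gene, held a peak of 1511 bp with 43 fragments over an internal start with 10 CG. Nr6a1 with 167 kb of interior, Zbtb16 with 160 kb and Dmrt1 with 88.7 kb held none. These 3 were picked as the longest without a peak, after their values were seen.

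piRNA genes, whose products silence transposons, held peaks in 3 of 22, at 9.73 per Mb (4.20 to 19.2). That interval lay below the value of all genes, also with any 1 member left out. The start was marked in 13 of the 15 piRNA genes with known strand. Over all genes with a marked start the density was 20.7 at 20 to 50 kb of interior and 17.7 at 50 to 100 kb. The piRNA interval holds the second of these values, and genes matched in length and start were not compared. Tdrd7 held 3 peaks of up to 38 fragments within 2 kb of each other, Asz1 2 of 15 and 18 fragments, and Morc1 3, the widest of 1477 bp. Meiosis genes held peaks in 6 of 26, at 15.3 per Mb (8.54 to 25.2). Among them Sycp1, of the synaptonemal complex, had 3, the widest of 1514 bp with 37 fragments, Syce3 1 of 324 bp and Meiob 1 of 533 bp.

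DNA methylation and demethylation genes held peaks in 7 of 16, at 27.3 per Mb (14.9 to 45.9). Dnmt3a had 6 peaks, 5 of them 978 to 1360 bp wide, with 23 to 43 fragments, and no peak within 1 kb of its start. Dnmt1 had 2 and Dnmt3l 1, and Dnmt3b had none in 28.3 kb. Genes of histone methylation enzymes held peaks in 7 of 26, at 15.1 per Mb (9.98 to 22.0). Kdm4c, an H3K9 demethylase gene, had a peak of 2157 bp with 42 fragments over an internal start with 28 CG, 9382 bp from its own start, which was unmarked. Kdm6b, an H3K27 demethylase gene, had 3 peaks with folds of 2.74 to 3.09, Setd1b 4 and Kdm2b 7.

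Genes known to use internal promoters held peaks in 31 of 36, at 29.8 per Mb (27.0 to 32.9), with a median of 25.7 per Mb per gene against 0 over all genes. Without Ptprd the density was 26.3 (23.3 to 29.4). These genes are long, with a median interior of 191 kb against 21.3 kb. Over all genes with at least 100 kb of interior, whose median interior was 179 kb, the median per gene was 17.4 per Mb. Pax6, of eye and brain development, had 10 peaks of 165 to 530 bp with 34 to 53 fragments and folds of 2.13 to 4.25. Runx3 had 6, the widest of 1326 bp. Mitf with 194 kb and Lef1 with 104 kb of interior held none, and neither did Smad3.

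Synaptic adhesion and neuronal surface genes held peaks in 33 of 33, at 34.1 per Mb (32.2 to 36.1), and ion channel and glutamate receptor genes in 35 of 35, at 26.7 (24.4 to 29.3), in interiors with medians of 1013 and 449 kb. Cadm2 led the synaptic list with 0.0801 peaks per kb, followed by Fstl5 with 48 peaks and Csmd3 with 78. Ctnna2, with the widest peak, held only 9 in 1040 kb. Among channels, the sodium channel gene Scn8a had 14 peaks, the kainate receptor gene Grik2 48 and the calcium channel gene Cacna1a 16. Grik4 had 8, of 170 to 1853 bp. Of all genes with 300 kb or more of interior 97.8% held a peak, so the count alone does not set these lists apart. Those genes held 27.8 peaks per Mb (27.2 to 28.5). The interval of the channel list holds that value, and the interval of the synaptic list lies above it.

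Cadherin and junction genes held peaks in 24 of 29, at 36.0 per Mb (32.9 to 39.3), led per kb by Cgn, the tight junction gene cingulin, with 3, Cdh18 with 68 and Pcdh9 with 54. This rate pools all members. The median per gene was 17.6 per Mb, and Ctnna3 alone held 77 of the 499 peaks of the list. Dlg1 with 179 kb and Ctnna1 with 109 kb held none. Signalling receptor genes held peaks in 26 of 37, at 31.1 (27.9 to 34.7), among them the ephrin receptor genes Epha5 with 25 and Epha6 with 63 and Fgfr1 with 2, while Plxna2 held none in 167 kb. Without Epha6 the density of the receptors was 27.6 (24.4 to 31.1). The median per receptor gene was 14.7 per Mb, beside 17.4 over all genes with at least 100 kb of interior. Developmental transcription factor genes held peaks in 34 of 39, at 26.3 (23.2 to 29.7). Nfix had 9, Tshz2 28, Bcl11b 6, the widest of 2261 bp, and Rora 6, while Gli3 held none in 255 kb. Genes of phosphodiesterases and cyclic nucleotide signalling held peaks in 17 of 22, at 21.8 (18.6 to 25.3), with 19 in the anchoring protein gene Akap6, 12 in Pde7b, 44 in Pde4d and 2 in Adcy9.

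Genes of somatic cells of the testis were also tallied. Sertoli genes held peaks in 7 of 10, at 57.2 per Mb (38.3 to 82.2), but without Gata4 the value was 40.5 (24 to 64.1), an interval that holds the 24.7 of all genes. Gata4, a transcription factor gene, held 11 of the 29 peaks, 173 to 864 bp wide with folds of 2.13 to 3.64, Fshr, the receptor of follicle-stimulating hormone, 6, and Cldn11 and Dhh 1 each. Leydig and interstitial genes held peaks in 6 of 12, at 43.4 (23.1 to 74.2), with 3 each in Nr2f2, Ptch1 and Lhcgr and 1 of 1376 bp in Col3a1. Endothelial and blood genes held peaks in 9 of 15, at 30.2 (20.8 to 42.4), with 3 in Emcn, 5 in Ptprc, 6 in Flt1 and 5 in Runx1. At the gene ends, 4 of 6 markers of each of these last 2 groups carried no peak. Among their list genes with interior sequence and known strand, the start was marked in 5 of 9 and in 6 of 10. Over all such genes it was marked in 8102 of 10213. The part of other cells in these values was not tested.

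**Figure D5:**
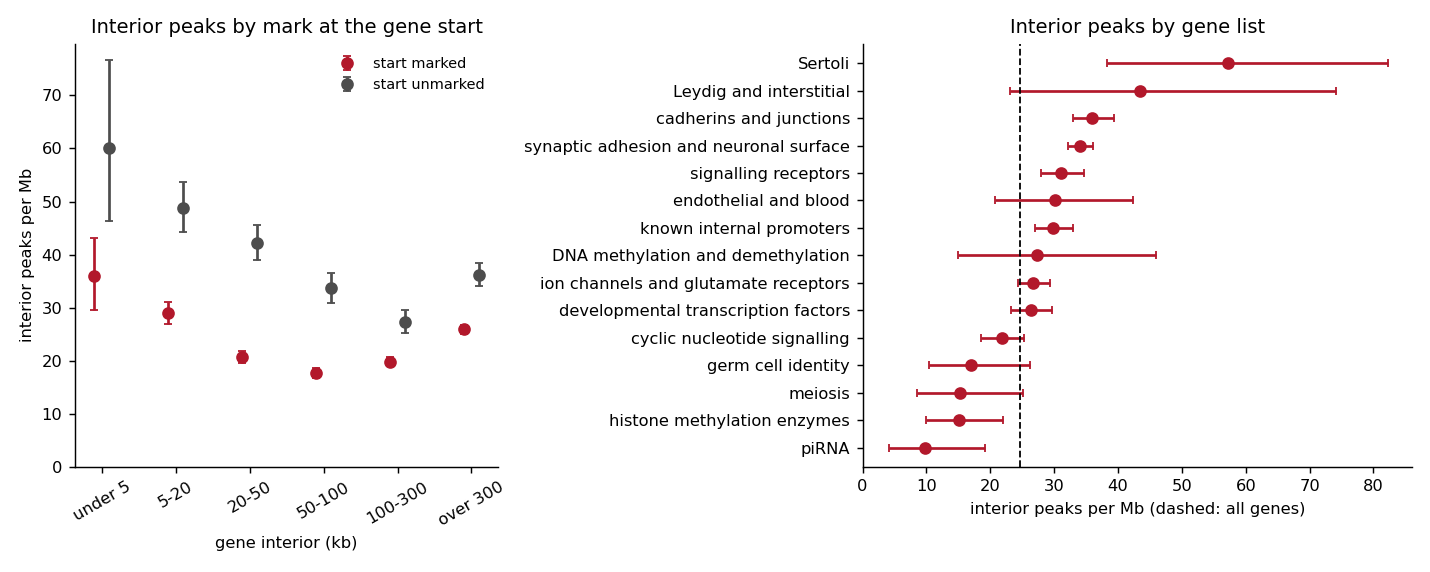
Interior peaks per Mb by interior length (left), for genes whose start carries a peak (red) and genes whose start does not (grey), and by gene list (right), with the dashed line at 24.7 for all genes. Bars are 95% Poisson intervals. Genes with a marked start lie below the others in every length class, and the lists run between 9.73 for piRNA genes and 57.2 for Sertoli genes.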

How the data were processed

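The deposited H3K4me3 peak list was analysed. Tools named, without role or setting, in the submitters' processing notes are MACS2 2.1.0, Bowtie2 2.5.0, Trim Galore, deepTools 3.5.1, bedtools 2.27.1 and SAMtools 1.16.1, beside the builds mm10 and sacCer3. The authors deposited per peak the fold enrichment of its summit (a ratio), a −log10 p, a −log10 q and a score derived from the last. These are the authors' values and were used to describe and filter peaks of this list. Each pileup and background was solved from the fold together with the −log10 p, taken as a Poisson tail, within 0.0001 for 122471 of 122479 autosomal peaks. The depth of the library is not given.

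Genes and start windows were RefSeq's on GRCm38.p6, the build of mm10, with 47038 autosomal genes, of which 20661 are protein-coding. Strand came from the start windows. Rates use only the sequence of a gene over 5 kb from every gene end. Shares have Wilson intervals, rates exact Poisson intervals and medians order-statistic intervals at 95%. A count of 0 was read as at most 3 peaks. Fragments without molecular identifiers are not independent, so intervals cover counting error only. No test was run. The members and the 15 gene lists, with 395 symbols, were chosen with earlier results of these data known.

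Named genes were the 15 with most peaks per kb and the 10 with most peaks, given 20 kb of interior, the hosts of the 10 peaks of highest fold, the 10 widest and the 5 of highest pileup, the 5 longest interiors without a peak, and in each list the 3 densest members and the one with the widest peak. Some genes that this rule names are not reported here. The other named genes, among them list members without a peak, Sox6, Nrxn3 and those of the printed windows, were picked with their values already known. Alternatives covered distance, peak thresholds, overlap, joining, annotated starts, interior length and, after the data were seen, each list without each member. The placement and recovery were tested on simulated data. Scripts ran in Python 3.11.15 with matplotlib 3.10.9, scipy 1.17.1, pandas 2.3.3 and numpy 2.4.6.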

Additional observations from a re-analysis of the deposited data

How the results depend on the processing

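All values come from 1 library, so settings can show how a number depends on a choice and not how it varies between embryos. The lower density inside protein-coding genes than outside them and the lower density in genes with a marked start kept their direction under every alternative tried. The interior count was 10260 over 20 kb from an end and within 1.5 times 18392 elsewhere. With limits of 2, 10 and 20 kb the median fold was 6.23, 6.67 and 6.74, the median pileup 28, 25 and 24, the share of distal peaks 26.7%, 23.7% and 22.7%, and the ratio of start-marked to unmarked density 0.578, 0.652 and 0.697. The median width was 577 and 573 bp at 10 and 20 kb, and the share of genes with a peak 41.2% and 43.2% at 2 and 20 kb. With a −log10 q of at least 5 the medians were 630 bp, 6.74 and 27 fragments. With a fold of at least 5 they were 722 bp, 7.39 and 29, with 35.2% of genes, 35.3% of internal starts and a ratio of 0.754. With at least 20 fragments they were 775 bp, 7.61 and 32, with 26.6% of distal peaks and 34.0% of genes. Joined peaks had 791 bp, 7.07 and 28. With whole peaks in the interior the shares were 24.3% and 37.9% of genes, and with 1 bp 25.1% and 40.2%. With annotated starts added as ends the values were 576 bp, 6.63, 25 fragments, 23.4% and 36.6%. Without peaks at internal starts they were 573 bp, 25 fragments, 24% and 37.6%. Within 1000 bp of a peak lay 48.9% of internal starts.

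The ranking per kb was the least stable result. Of the 15 leading genes, 3, 4 and 1 stayed with limits of 2, 10 and 20 kb, 9 with a −log10 q of at least 5, 2 with a fold of at least 5, 8 with at least 20 fragments, 5 with joined peaks, and 1 each with a minimum interior of 10 or 50 kb. Of 293 values of 25 ranked genes, 37 in 21 genes moved beyond their interval. The cause was not tested. No paired analysis was possible because each antibody has 1 library. Reads, IgG values and repeat content are not used here, and the start windows are not complete.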
